A study of Arabidopsis thaliana with 30 samples.

Results

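VND7pro nuclei are the nuclei of differentiating vessel elements of the Arabidopsis thaliana inflorescence stem, sorted from a Col-0 line in which the promoter of VND7 drives H4-GFP, a fusion of histone H4 with green fluorescent protein. The members of this comparison are the 3 VND7pro GFP-positive libraries, chosen by their labels, out of 30 libraries of sorted nuclei in all. They were set against the equal-weight mean of 6 other tissues with 3 GFP-positive libraries each, 18 in total. These are fibers (NST3pro:H4-GFP), proximal cambium and differentiating xylem (PXYpro:H4-GFP), distal cambium and differentiating phloem (SMXL5pro:H4-GFP), differentiated phloem (APLpro:H4-GFP), starch sheath (SCRpro:H4-GFP) and epidermis (LTP1pro:H4-GFP). All 7 lines share the Col-0 background and the H4-GFP reporter, and the second internode of flowering plants moved from short into long days was the tissue in each case. Each promoter labels every cell in which it is active, so that a population holds cells of several stages, and the counts come from RNA of nuclei and not of whole cells. The labels do not say whether the 3 libraries of a tissue came from separate plants or cultures, so the p-values below measure the spread between these libraries, which may in part be technical.

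Vessel elements are the water-conducting cells of the xylem. VND proteins are NAC-domain transcription factors that switch on vessel differentiation, and they act through MYB and other NAC factors on the genes for cellulose, xylan and lignin of the secondary cell wall. Microtubules and ROP GTPases give this wall its pattern of thickenings and pits. The cell then dies and digests its own contents with proteases and nucleases, so that a hollow tube remains. Fibers deposit secondary walls too, under the related NST factors, but live longer, and PXYpro nuclei include xylem cells at an earlier stage. Both are therefore the tissues most like vessels here.

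Levels are given as CPM, that is, reads relative to the total of a library after scaling of the totals with TMM, in the order of VND7pro replicates 4, 5 and 6. For the 18 other libraries the lowest, median and highest are given. Replicates 2, 6, 15 and 19 (NST3pro, VND7pro, APLpro and LTP1pro) were left out by the study, and the counts of called genes are therefore also given for a fit of the other 17 libraries, which keeps 2 VND7pro libraries. The 3 VND7pro libraries held 6508909, 3400268 and 3605651 reads on genes, against 1918733 to 18335693 in the 18 others. The 8 vessel markers VND1, VND2, VND3, VND6, VND7, XCP1, XCP2 and MC9 summed to 1183 to 3179 CPM in VND7pro libraries and to at most 399.6 CPM in each of the 18 others. XCP2 made up 71% to 79.3% of these sums in VND7pro libraries, and without it the sums were 343.2 to 712.5 CPM in VND7pro and 53.5 to 171.9 CPM in the other libraries, while MC9 overlapped between them. Markers of other cell types were not absent. Fiber markers (NST3 and NST1) summed to 75.8 to 174 CPM in VND7pro and 198.7 to 335.5 CPM in NST3pro libraries, and proximal cambium markers (PXY and WOX4) to 127.4 to 281.7 CPM in VND7pro and 338.8 to 428.7 CPM in PXYpro libraries. Phloem markers (APL, SEOR1, NAC086 and SUC2) summed to 258.9 to 518.1 CPM in VND7pro and 424.9 to 611.2 CPM in APLpro libraries, mostly through SUC2, without which they were 42.6 to 58.7 CPM in VND7pro and 127.1 to 155.1 CPM in APLpro libraries. The 6 epidermis markers summed to 235.4 to 476.1 CPM in VND7pro and 2551 to 7294 CPM in LTP1pro libraries. Starch sheath markers summed to 112.4 to 191.2 CPM in VND7pro and 329 to 481.6 CPM in SCRpro libraries. Their part in the results below was not tested. In such pools of nuclei, fewer cells of a type and less RNA per cell cannot be told apart.

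To determine which transcripts distinguish differentiating vessels from the rest of the stem, 31583 genes were tested with the quasi-likelihood test of edgeR, and genes with an adjusted p under 0.01 were called. In VND7pro nuclei 1423 genes were higher, 4.51% of those tested, and 250 were lower, 0.792%. With 17 libraries 32659 genes were tested, of which 3376 were higher (10.3%) and 669 lower (2.05%). Of the 1423 higher genes 1417 were also called with 17 libraries, and of the 250 lower genes 225. The counts rested on VND7pro replicates 4 and 5, since 600 genes were higher and 65 lower without replicate 4, and 586 and 70 without replicate 5. Without SMXL5pro replicate 10 or 11, 163 and 161 genes were lower. All 3 VND7pro libraries exceeded all 18 others in 401 genes (1.27%) and fell below all of them in 132 genes (0.418%). Among the 1423 higher genes, the highest mean of the 6 other tissues was most often that of the fibers (586 genes, 41.2%), followed by PXYpro (374 genes, 26.3%), and least often SMXL5pro (28 genes, 1.97%), and the VND7pro mean was above all 6 in 1265 of the 1423. Over all tested genes the same tissues had the highest mean of the 6 in 19.5%, 14.8% and 17.2%.

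The VND genes were higher in VND7pro nuclei throughout the family. Of 9 genes in the list of vessel NAC factors, the 7 VND genes were higher and 0 were lower, with a median log2 fold change of 2.34 over the 9, against 4.51% higher and a median of -0.01 over all tested genes. For each of the 7, the lowest VND7pro library was above the highest of the 18 others, which only 1.27% of all genes showed. VND7, whose promoter drove the reporter, had 54.3, 49.1 and 42.8 CPM in VND7pro libraries, against 2.68 to 37 CPM (median 16.9) in the others. The values of its 3 libraries lay close together, and the highest of the others was an NST3pro library that the study left out. The reporter construct carries promoter and terminator regions of VND7, and whether its transcripts added reads to this gene was not tested. The log2 fold change of VND7 was 1.55 ± 0.37 (SE, adjusted p 0.0064), the smallest in the family, and its call was lost with RLE size factors in place of TMM (1.49, adjusted p 0.012).

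VND5 and VND1 stood furthest apart. VND5 had 429, 394 and 166 CPM in VND7pro libraries, against 3.68 to 57.5 CPM (median 14.2) in the 18 others, with a log2 fold change of 4.37 ± 0.26 (adjusted p 3.9e-11). VND1 had 290.0, 237 and 113 CPM, against 0 to 73.4 CPM (median 11.6), and a log2 fold change of 4.08 ± 0.34 (adjusted p 9.0e-09). In both genes the PXYpro libraries came next, and replicate 6 was the lowest of the VND7pro libraries while still above every other library. VND6, which with VND7 is known to induce vessel formation when overexpressed, had 69.9, 66.5 and 26.9 CPM in VND7pro libraries, against 0.856 to 19.1 CPM (median 11.7) in the others (log2 fold change 2.34 ± 0.40, adjusted p 0.00024). VND2, VND3 and VND4 had log2 fold changes of 1.93, 2.56 and 2.59. The 2 genes of the list that were not called encode NAC proteins that restrain vessel differentiation. VNI2, which binds VND7 and represses its activity, had 55.4, 91 and 43.3 CPM in VND7pro libraries and 19.3 to 272 CPM (median 62.5) in the others, with a log2 fold change of -0.09 ± 0.31 (adjusted p 0.93), and XND1 one of 0.18 ± 0.29 (adjusted p 0.83). Without VND7pro replicate 4, the calls of VND2, VND3, VND6 and VND7 were lost (adjusted p 0.023, 0.012, 0.012 and 0.072), and without replicate 5 those of VND2, VND6 and VND7 (0.013, 0.011 and 0.052).

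**Figure D1:**
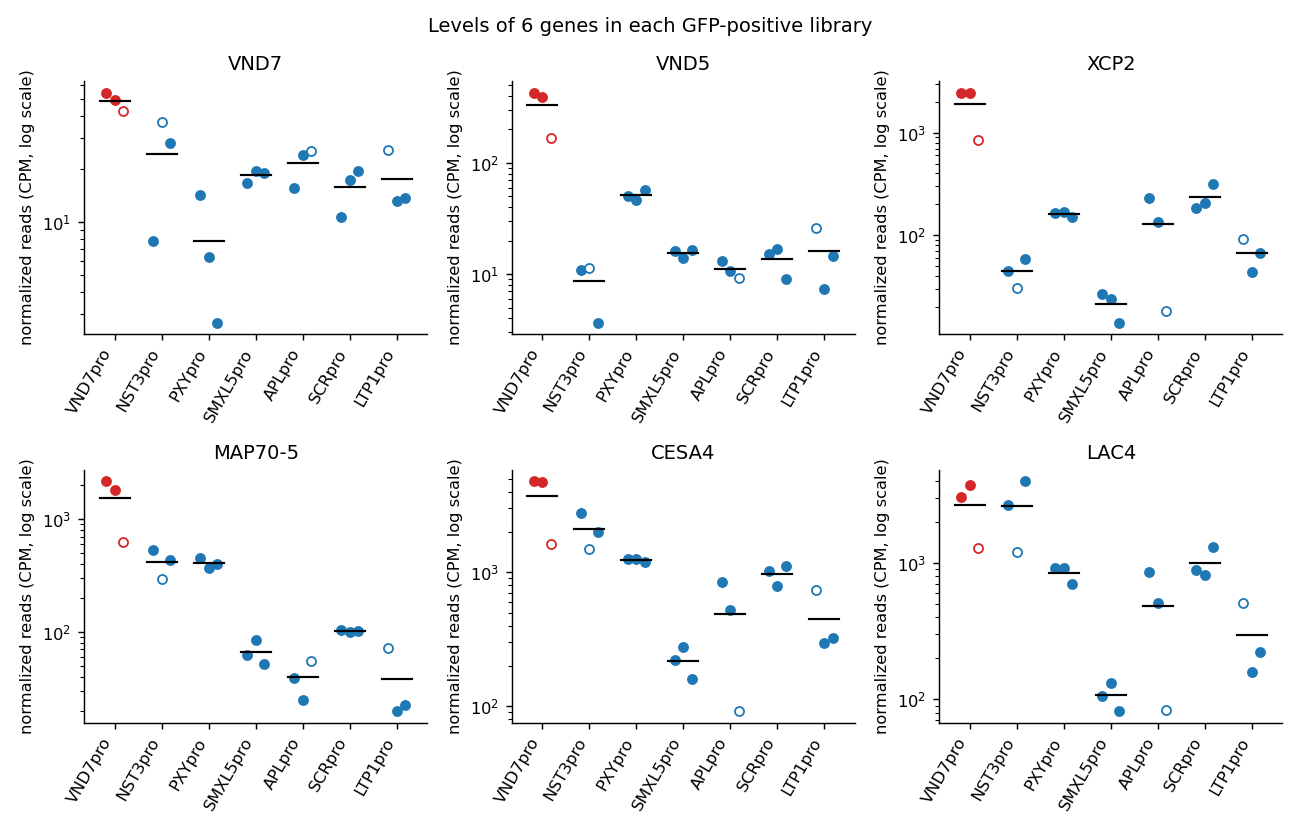
Levels of VND7, VND5, XCP2, MAP70-5, CESA4 and LAC4 in each GFP-positive library, in CPM on a log axis whose range differs between panels. Points are libraries, open where the study left the library out, and bars are means of 3 libraries. All VND7pro points of VND7, VND5, XCP2 and MAP70-5 lie above those of the other tissues, whereas VND7pro replicate 6 lies within the range of the NST3pro libraries for CESA4 and LAC4.

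Genes that execute vessel cell death and autolysis were higher in VND7pro nuclei whichever VND7pro library was left out. Of 13 genes, 6 were higher and 0 lower, with a median log2 fold change of 1.74, beside 4.51% higher over all tested genes. The 6 were XCP1, XCP2, XSP1, BFN1, SCPL48 and ACL5. In each of them all 3 VND7pro libraries exceeded all 18 others, as they did in 1.27% of all tested genes. None of these 6 calls was lost when VND7pro replicate 4, 5 or 6 was left out. With 17 libraries 8 were higher, RNS3 and AT4G18425 being added, beside 10.3% of all tested genes.

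XCP2, a papain-like cysteine protease that clears the contents of the vessel after death, had 2466, 2470.2 and 840.0 CPM in VND7pro libraries, against 14 to 315 CPM (median 78.7) in the 18 others. Even replicate 6 lay well above the highest of the others, an SCRpro library. The log2 fold change was 4.55 ± 0.34 (adjusted p 1.9e-09). Its paralog XCP1 had 136, 141 and 67.5 CPM in VND7pro libraries, against 5.87 to 34 CPM (median 13.6) in the others (log2 fold change 2.96 ± 0.28, adjusted p 6.3e-08), and XSP1, a xylem serine protease of the subtilase type, had 405, 449.9 and 193 CPM, against 5.53 to 44.8 CPM (median 21.8) (3.81 ± 0.31, adjusted p 5.7e-09). The groups did not overlap for either protease.

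BFN1, a nuclease that degrades DNA and RNA in dying and senescing cells, had 138, 135 and 59.7 CPM in VND7pro libraries and 5.5 to 32.1 CPM (median 12.9) in the others (log2 fold change 2.95 ± 0.35, adjusted p 1.6e-06). ACL5 makes thermospermine, a polyamine that delays xylem maturation and thereby keeps vessel cells from dying early. It had 415, 394 and 165 CPM in VND7pro libraries and 7.76 to 126 CPM (median 42.1) in the others (3.03 ± 0.33, adjusted p 6.0e-07). Thus the genes of this list that rose included both executors of death and a gene known to postpone it. MC9, a metacaspase that acts in autolysis after vessel cell death, had 9.84, 16.5 and 8.29 CPM in VND7pro libraries, against 0.428 to 17.9 CPM (median 7.14) in the others, and was not called (log2 fold change 0.69 ± 0.60, adjusted p 0.61). The ribonuclease RNS1 and the gene AT2G14095 were near the detection limit in VND7pro libraries, with 1.93, 0 and 7.6 CPM and 2.99, 3.81 and 5.07 CPM.

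A short element known as TERE, which was described in promoters of genes active in tracheary elements, was searched because members of this list carry it. Its letters are CTTNAAAGCNA, and both strands of the 300 bases before each RefSeq gene start were read. It was present in 0.43% of 25800 promoters of tested protein-coding genes, in 0.817% of 1347 promoters of called higher genes and in 0.87% of 230 promoters of called lower genes. In the cell death list 3 of 13 promoters held it, those of XCP1, XSP1 and MC9. The 3 sequences below run up to the gene start of the RefSeq annotation of TAIR10.1, on the plus strand, with the match in capitals. They are shown because they carry the same element in front of 2 genes that were called higher and 1 that was not.
XCP1, chr4:16810362-16810481: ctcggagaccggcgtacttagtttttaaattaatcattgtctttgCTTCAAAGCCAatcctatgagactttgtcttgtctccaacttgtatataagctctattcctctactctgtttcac
XSP1, chr4:93483-93742: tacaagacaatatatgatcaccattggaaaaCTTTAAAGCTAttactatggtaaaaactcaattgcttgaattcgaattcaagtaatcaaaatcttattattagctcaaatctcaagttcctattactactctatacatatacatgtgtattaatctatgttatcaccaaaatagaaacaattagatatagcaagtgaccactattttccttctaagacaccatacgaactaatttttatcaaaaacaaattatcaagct
MC9, chr5:1153640-1153739: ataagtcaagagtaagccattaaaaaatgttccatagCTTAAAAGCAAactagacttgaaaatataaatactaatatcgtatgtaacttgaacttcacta
The match ended 65 bases before the start of XCP1, 219 bases before that of XSP1 and 53 bases before that of MC9. Thus a match in this window occurred with a log2 fold change of 2.96 for XCP1 and of 0.69 for MC9, and BFN1, ACL5, SCPL48 and XCP2 had none. A match of letters is a description and does not show that a factor binds there.

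Genes that pattern the vessel wall were higher as well. Of 11 genes, 10 were tested, and 8 of these were higher and 0 lower, with a median log2 fold change of 2.17. With 17 libraries all 10 tested were higher. Over all tested genes 4.51% were higher with 21 libraries and 10.3% with 17. The remaining gene, MAP65-8, had 0 reads in all 21 libraries. Its whole length is shared with a gene on the other strand, and whether this overlap left it without reads was not tested.

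MAP70-5, a microtubule-associated protein that lines the borders of wall thickenings, had 2171, 1830.2 and 621 CPM in VND7pro libraries, against 19.7 to 533 CPM (median 91.5) in the others. Replicates 4 and 5 were far above all other libraries, and replicate 6 was just above the highest, an NST3pro library. The log2 fold change was 3.81 ± 0.29 (adjusted p 2.3e-09). IQD13, which restrains the growth of wall pits, had 466, 441 and 155 CPM, against 16.9 to 109 CPM (median 42.1) (log2 fold change 2.94 ± 0.26, adjusted p 2.0e-08), although 60% of the gene is shared with one on the other strand. The steepest change of the list was that of AT3G14170, a gene annotated with a domain of unknown function (DUF936). It had 555, 610.4 and 189 CPM in VND7pro libraries, against 9.98 to 82.6 CPM (median 22.3) in the others (4.32 ± 0.28, adjusted p 2.2e-10).

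The ROP module that sets wall pits includes the GTPase ROP11, its activator ROPGEF4, its inactivator ROPGAP3 and the effector MIDD1, which draws a microtubule-destabilizing kinesin to the pit. All 4 were higher, with log2 fold changes of 2.13, 1.81, 1.82 and 2.22 (adjusted p 1.4e-06, 0.0024, 1.4e-05 and 2.7e-06). VND7pro replicate 6 lay within the range of the other libraries for each of them. The call of ROPGEF4 was lost without replicate 4 or 5 (adjusted p 0.049 and 0.051). FRA1, a kinesin needed for cellulose deposition, had 822, 737 and 302 CPM in VND7pro libraries, against 70.9 to 258 CPM (median 129) in the others, and a log2 fold change of 2.3 ± 0.24 (adjusted p 3.5e-07). KINESIN-13A, the kinesin that MIDD1 recruits, and MAP70-1 had log2 fold changes of 0.84 and 1.06 (adjusted p 0.042 and 0.011) and were called with 17 libraries alone.

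**Figure D2:**
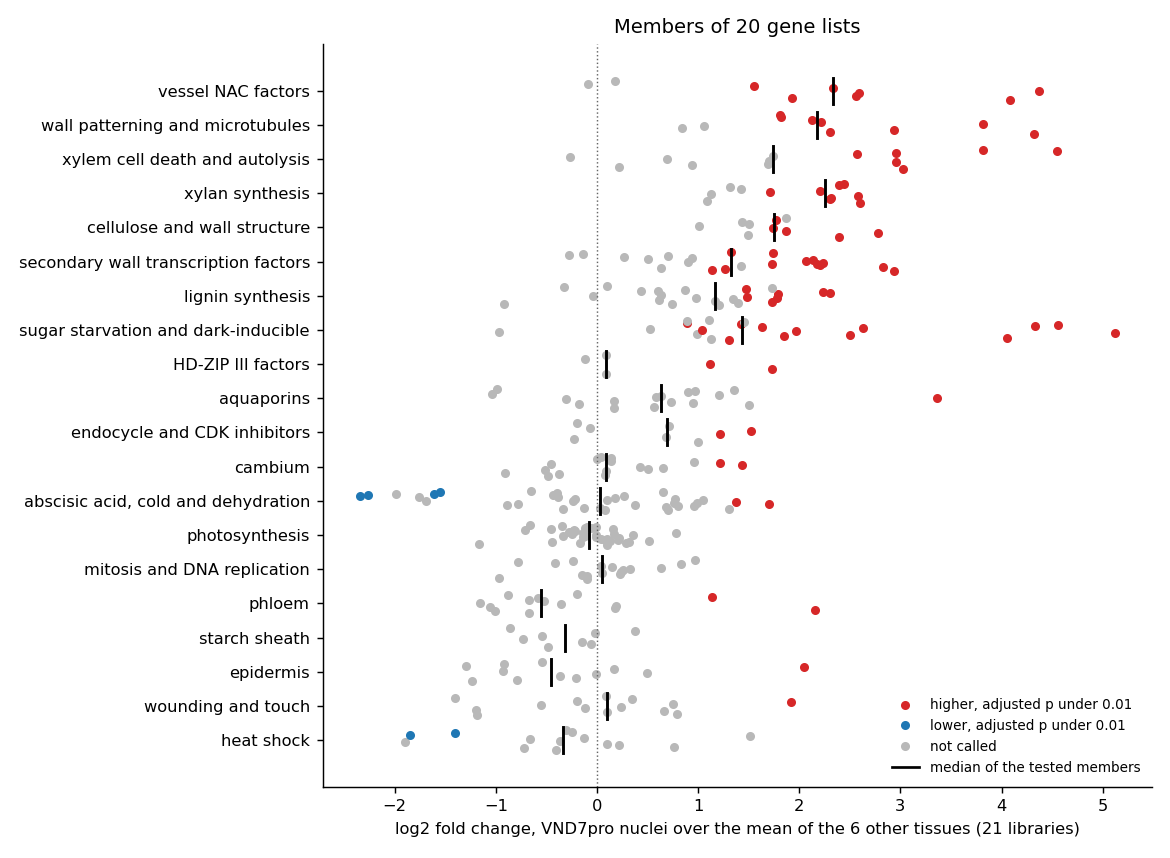
Log2 fold changes of the tested members of 20 gene lists, VND7pro nuclei over the mean of the 6 other tissues in the fit of 21 libraries. Each point is a gene, coloured by its call, and black lines are list medians. The medians of the vessel NAC, patterning and xylan lists exceed 2, and those of the photosynthesis, mitosis and starch sheath lists lie near or below 0 with 0 members called.

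Genes for the polysaccharides of the secondary wall were higher in VND7pro nuclei, but their lead over the other libraries depended on replicates 4 and 5. Of 12 xylan genes 8 were higher and 0 lower (median log2 fold change 2.26), and with 17 libraries all 12, beside 4.51% and 10.3% of all tested genes. In 9 of the 12, both replicates 4 and 5 exceeded all 18 other libraries, but the share of all genes that did so was not determined. All 3 VND7pro libraries exceeded them in 0 of the 12, beside 1.27% of all tested genes. FRA8, a glycosyltransferase that builds the end sequence of xylan, had 312, 384 and 151 CPM in VND7pro libraries, against 10.13 to 205 CPM (median 46.6) in the others (log2 fold change 2.60 ± 0.28, adjusted p 5.1e-07). TBL29, which acetylates xylan, had 1024, 1092 and 418 CPM, against 51.7 to 434 CPM (median 169) (2.44 ± 0.32, adjusted p 6.9e-06), and GUX2, which adds glucuronic acid, 527, 403 and 162 CPM, against 20.5 to 283 CPM (median 53.7) (2.58 ± 0.30, adjusted p 1.2e-06). In each of the 3 genes replicate 6 fell within the range of the others and replicates 4 and 5 above it. IRX9, IRX10 and IRX14, which act in the xylan backbone, had log2 fold changes of 2.39, 1.71 and 2.21, and of the 8 calls that of IRX10 alone was lost without replicate 4 or 5 (adjusted p 0.069 and 0.051).

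Among 10 genes for cellulose and wall structure 5 were higher and 0 lower (median 1.75), and with 17 libraries 9 were higher. The shares over all tested genes were 4.51% and 10.3%. CESA4 had 4783, 4681 and 1621 CPM in VND7pro libraries, against 91.8 to 2794 CPM (median 817) in the others, and CESA8 had 2574, 2596 and 915 CPM, against 42.1 to 902 CPM (median 388). Both encode subunits of the cellulose synthase of secondary walls. For CESA4 replicate 6 overlapped with NST3pro libraries, and for CESA8 it was just above the highest other library. Their log2 fold changes were 2.39 ± 0.38 and 2.78 ± 0.36 (adjusted p 0.00012 and 5.8e-06). CESA7, another subunit, had 1031, 1043 and 375 CPM in VND7pro libraries and 63.5 to 795 CPM (median 329.5) in the others, with a log2 fold change of 1.50 ± 0.39 that was not called (adjusted p 0.014), and was called with 17 libraries (1.93 ± 0.18, adjusted p 3.7e-08). COBL4, CTL2 and TED6 were also higher (log2 fold changes 1.87, 1.74 and 1.77), but none of these 3 calls held without VND7pro replicate 4 (adjusted p 0.074, 0.11 and 0.059) or 5 (0.081, 0.13 and 0.021). CTL2 was also lost without any of 13 single libraries of other tissues, with adjusted p up to 0.016.

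TERE was present before 2 of the 10 genes of this list, CESA4, which was called, and FLA11, an arabinogalactan protein of secondary walls that was not (log2 fold change 1.01 ± 0.46, adjusted p 0.22). A further wall gene with the element was LBD30. The stretches up to their gene starts are shown to set beside those of the proteases, in the orientation of the gene, with CESA4 and LBD30 on the plus and FLA11 on the minus strand of TAIR10.1. The match lies close to the start in CESA4 and reads on the opposite strand in LBD30.
CESA4, chr5:17714310-17714389: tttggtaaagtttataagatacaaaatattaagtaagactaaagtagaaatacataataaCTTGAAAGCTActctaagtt
FLA11, chr5:753658-753897: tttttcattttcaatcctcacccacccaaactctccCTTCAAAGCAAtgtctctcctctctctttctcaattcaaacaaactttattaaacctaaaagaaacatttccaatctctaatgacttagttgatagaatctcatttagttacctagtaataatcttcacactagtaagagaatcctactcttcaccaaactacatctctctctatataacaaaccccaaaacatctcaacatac
LBD30, chr4:89788-89907: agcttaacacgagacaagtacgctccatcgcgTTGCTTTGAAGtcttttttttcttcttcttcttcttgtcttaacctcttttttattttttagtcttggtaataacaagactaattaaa
The distances from the match to the gene start were 10, 194 and 78 bases for CESA4, FLA11 and LBD30.

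The transcription factors that act between the VND proteins and the wall genes rose in part. Of 22 genes 21 were tested, and 12 were higher and 0 lower (median log2 fold change 1.33), and with 17 libraries 14 were higher. The shares over all tested genes were 4.51% and 10.3%. MYB46, a direct target of VND and NST proteins and a switch of the whole wall programme, had 124, 196 and 74.4 CPM in VND7pro libraries, against 11.2 to 104 CPM (median 25.1) in the others (log2 fold change 2.24 ± 0.33, adjusted p 4.0e-05). Replicates 4 and 5 lay above all other libraries and replicate 6 within their range. C3H14, a zinc finger protein downstream of MYB46, had 203, 192 and 68.9 CPM, against 7.01 to 88.3 CPM (median 16.9) (2.94 ± 0.30, adjusted p 1.7e-07). LBD30, a LOB-domain protein expressed in differentiating vessels, had 61.6, 91.4 and 40.1 CPM, against 0.438 to 21.7 CPM (median 9.25) (2.83 ± 0.51, adjusted p 0.00053), and was the only gene of the list in which all 3 VND7pro libraries exceeded the 18 others. Its call was lost without replicate 5 (adjusted p 0.026).

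MYB63, an activator of lignin genes, and MYB20, MYB42 and MYB43, which also act on lignin synthesis, had log2 fold changes of 2.14, 2.21, 2.18 and 1.73 (adjusted p 1.5e-05, 3.0e-06, 0.00072 and 5.6e-05). The call of MYB42 was lost without replicate 4 or 5 (adjusted p 0.016 and 0.013). SND2 and SND3, NAC factors of fibers and vessels, had log2 fold changes of 1.74 and 1.33 (adjusted p 0.00034 and 0.00059). Without replicate 5 both calls were lost (adjusted p 0.019 and 0.036), and without replicate 4 that of SND3 (0.013). The calls of KNAT7 and MYB54 were lost without either replicate, and also without any of 2 and 6 single libraries of other tissues (adjusted p up to 0.011 and 0.013), and that of LBD15 without replicate 5 (adjusted p 0.12). The 3 NST factors did not pass the test. NST3, the fiber regulator, had 75.3, 92.3 and 45.6 CPM in VND7pro libraries, against 21 to 199 CPM (median 83.6) in the others (log2 fold change -0.13 ± 0.34, adjusted p 0.89), and NST1 and NST2 had log2 fold changes of 0.70 and -0.28 (adjusted p 0.15 and 0.8). NST1 was called with 17 libraries (1.10 ± 0.21, adjusted p 0.00063). MYB58 had 0 reads in all 21 libraries and lies wholly within a gene on the other strand.

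Lignin genes showed the smallest lead of the wall groups. Of 23 genes 7 were higher and 0 lower (median log2 fold change 1.16), and with 17 libraries 18 were higher. The shares over all tested genes were 4.51% and 10.3%. The laccases, which oxidize lignin monomers in the wall, led the list. LAC4 had 3053, 3748 and 1286 CPM in VND7pro libraries, against 81.8 to 4007 CPM (median 760.3) in the others, so that its highest library was one of NST3pro. Its log2 fold change was 2.24 ± 0.41 (adjusted p 0.00056), and it was lost without replicate 5 (adjusted p 0.024). LAC11 had 101, 64.3 and 39.8 CPM in VND7pro libraries and 11.4 to 35.7 CPM (median 16.5) in the others (1.79 ± 0.31, adjusted p 0.00026), the only gene of the list whose 3 VND7pro libraries exceeded all others. Its call was lost without replicate 4 (adjusted p 0.036). LAC17 had 119, 143 and 61.7 CPM and 4.23 to 67 CPM (median 22.2) (2.3 ± 0.36, adjusted p 9.6e-05), but 97% of the gene is shared with one on the other strand.

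The enzymes that make the monomers were less far apart. PAL4, C4H, CYP98A3 and CSE were called with log2 fold changes of 1.47, 1.73, 1.48 and 1.78, and these 4 calls were lost without VND7pro replicate 4 (adjusted p 0.072, 0.03, 0.13 and 0.054) or 5 (0.1, 0.041, 0.095 and 0.072). CYP98A3 was also lost without any of 3 single libraries of other tissues (adjusted p up to 0.011). FAH1, which leads to syringyl lignin, the type that prevails in fibers, had 117, 168 and 94.2 CPM in VND7pro libraries and 35.9 to 407 CPM (median 126) in the others, with a log2 fold change of -0.03 ± 0.29 (adjusted p 0.98) that was not called in either fit. In 17 of the 23 genes the highest of the 18 other libraries was one of NST3pro.

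Vessel nuclei also stood out in a group that is not part of the wall programme. Of 20 genes known to be induced by sugar starvation or darkness, 13 were higher and 0 lower (median log2 fold change 1.44). With 17 libraries 17 were higher. Over all tested genes 4.51% were higher with 21 libraries and 10.3% with 17. All 3 VND7pro libraries exceeded the 18 others in 7 of the 20, beside 1.27% of all tested genes. DIN10, a dark-inducible member of the raffinose synthase family, had 2986, 2968 and 1026 CPM in VND7pro libraries, against 21.4 to 188 CPM (median 59.7) in the others, and SEN1, which is induced by darkness and senescence, had 78.7, 105 and 39.6 CPM, against 0.276 to 6.78 CPM (median 3.37). For neither gene did the groups overlap. Their log2 fold changes were 5.12 ± 0.28 and 4.56 ± 0.43 (adjusted p 1.3e-11 and 4.7e-08). The paper examined promoter reporters of both genes in stem sections. That of DIN10 was active mainly outside the tissue predicted for it, and that of SEN1 was hardly seen in any tissue. The paper adds that the upstream regions used may lack regulatory elements. AT3G15450, annotated as an aluminum induced protein, had 1619, 1636 and 568 CPM, against 7.8 to 380.1 CPM (median 67) (4.05 ± 0.35, adjusted p 1.2e-08).

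The members that rose include an enzyme of inositol oxidation, enzymes that break down amino acids and a beta-galactosidase. MIOX2, which oxidizes inositol to glucuronic acid, had 439.6, 398 and 154 CPM in VND7pro libraries, against 3.95 to 29.1 CPM (median 16.1) in the others (log2 fold change 4.33 ± 0.31, adjusted p 8.3e-10). ERD5, a proline dehydrogenase, had 886, 1236 and 497 CPM, against 38.1 to 371 CPM (median 133) (2.63 ± 0.30, adjusted p 1.3e-06). In both genes every VND7pro library was above every other. DIN3, DIN4 and BCAT2, which degrade branched-chain amino acids, had log2 fold changes of 1.97, 1.04 and 1.85, GDH2, a glutamate dehydrogenase, 1.63, and BGAL4, a beta-galactosidase, 2.5 (adjusted p 1.1e-05, 0.004, 2.3e-05, 0.00013 and 2.3e-06). The calls of DIN4, TPS10 and AKINBETA1 were lost without replicate 4 or 5 (adjusted p 0.12, 0.094 and 0.084 without replicate 4, and 0.067, 0.12 and 0.038 without replicate 5), and that of GDH2 without replicate 5 (0.011). TPS10 was also lost without any of 6 single libraries of other tissues (adjusted p up to 0.0145). ASN1, an asparagine synthetase induced by darkness, was called with 17 libraries alone (log2 fold change 1.53 ± 0.35, adjusted p 0.0029, against 1.12 ± 0.38, adjusted p 0.068, with 21). BGLU30 (DIN2), DIN9 and DIN11 were not called in either fit.

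**Figure D3:**
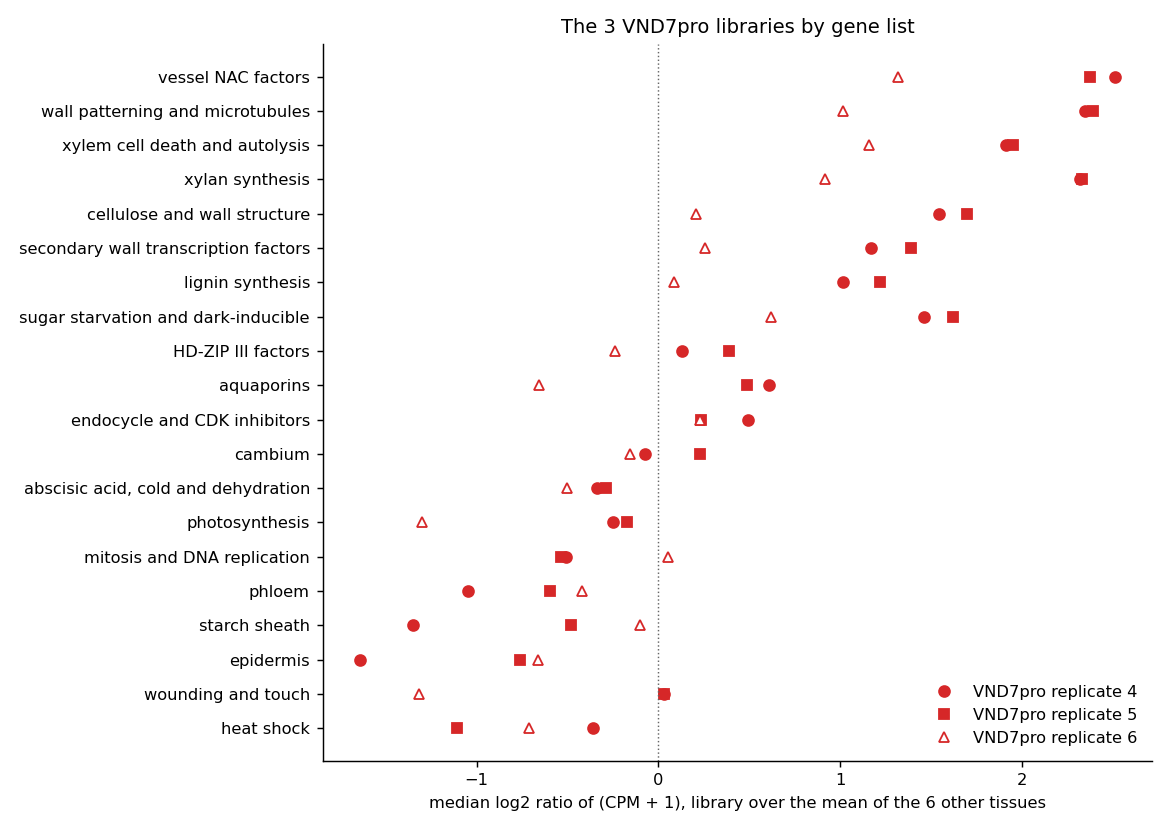
Median over the tested members of each gene list of the log2 ratio of CPM + 1 in 1 VND7pro library to the mean of the 6 other tissues. Circles, squares and open triangles are replicates 4, 5 and 6. Replicate 6 is positive for the vessel, wall and sugar starvation lists but closer to 0 than both others, with 1.32 for the vessel NAC factors against 2.51 and 2.37.

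The 3 VND7pro libraries did not carry the pattern equally. The correlation of log2 CPM across genes was 0.896 between replicates 4 and 5, 0.802 between 4 and 6 and 0.859 between 5 and 6, as a description only, since genes are not independent. Median log2 levels in replicate 6 relative to 4 and 5 were -0.83 for the vessel NAC factors, -1.11 for the cell death list, -1.42 for xylan, -1.43 for cellulose and -1.07 for the sugar starvation list, beside 0.21 over all tested genes. The photosynthesis list, which was not higher in VND7pro nuclei, had -1.10 as well, and the phloem, starch sheath and mitosis lists had 0.47, 1.02 and 0.60. The 3368 tested genes called higher with 17 libraries were called from replicates 4 and 5. A lower level in replicate 6 was therefore in part built in by that choice. Replicate 6 was below both others in 3299 of them, beside 11430 of all 31583 tested genes. In 1994 of the 3368 (59.2%) it was above the mean of the 6 other tissues, as it was in 43.7% of all genes. The share of reads on pseudogenes was 1.62%, 1.68% and 3.70% in replicates 4, 5 and 6, and the 100 most counted genes took 18.24%, 18.15% and 11.5%. Whether these shares and the levels in replicate 6 have a common origin was not tested.

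Some of the largest differences lay outside the lists. By the rule for named genes, the 12 highest log2 fold changes with every VND7pro library above every other library were those of AT1G63295, DIN10, U6-29, AT4G07070, AT1G43675, RXF12, AT5G35960, SEN1, XCP2, TPS14, AT3G08490 and arpc2b. AT1G63295, annotated in the remorin family, had 1395, 1355 and 463 CPM in VND7pro libraries, against 4.64 to 85.8 CPM (median 11.1) in the others, the largest change among them (log2 fold change 6.16 ± 0.29, adjusted p 1.0e-12). RXF12, of the xylanase type of glycosyl hydrolases, had 1149, 1232 and 436 CPM, against 12.5 to 96.4 CPM (median 34.9) (4.64 ± 0.22, adjusted p 1.0e-12). The lowest VND7pro library of both genes was several times the highest other library. AT5G35960, of a protein kinase family, had 933, 1004 and 348 CPM, against 11.3 to 68.7 CPM (median 30.2) (4.60 ± 0.25, adjusted p 1.3e-11), and arpc2b, a subunit of the ARP2/3 complex that nucleates actin filaments, had 719, 885 and 275 CPM, against 9.59 to 95 CPM (median 21.1) (4.45 ± 0.27, adjusted p 6.1e-11).

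TPS14, a terpene synthase, had 288, 268 and 89.8 CPM in VND7pro libraries and 1.38 to 23.4 CPM (median 8.08) in the others (log2 fold change 4.49 ± 0.36, adjusted p 4.2e-09). The long noncoding RNA gene AT4G07070 had 924, 1601 and 488 CPM, against 3.85 to 308 CPM (median 34.5) (4.77 ± 0.35, adjusted p 1.3e-09), and it shares 25.2% of its length with other genes of the same strand. The pseudogene AT1G43675 had 124, 105 and 32.2 CPM, against 0 to 8.02 CPM (median 3.26) (4.72 ± 0.39, adjusted p 7.4e-09). It lies between AT1G43670 and AT1G07187, which were called higher too, and strand was not recorded in the counting. Each of these 3 genes had non-overlapping groups by the rule that named it. With 17 libraries the rule also named AT5G02575 and MIOX2.

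Small nuclear and small nucleolar RNA genes formed a further group. snoRNAs guide the chemical modification of ribosomal RNA, and U6 is a catalytic RNA of the spliceosome. Of 116 tested snoRNA genes 29 were higher (25%) and 0 lower, with a median log2 fold change of 1.41, and of 13 snRNA genes 2 were higher, whereas 5.22% of 25801 protein-coding genes were. With 17 libraries 37 of 132 snoRNA genes were higher (28%). U6-29 had 112, 146 and 61 CPM in VND7pro libraries, against 0.43 to 15.4 CPM (median 4.05) in the others (log2 fold change 4.84 ± 0.40, adjusted p 6.5e-09). The snoRNA gene AT5G02575 had 182, 209.9 and 82.7 CPM, against 1.43 to 37.3 CPM (median 6.7) (4.40 ± 0.35, adjusted p 3.5e-09). Both genes were named by the rule, which requires non-overlapping groups, U6-29 with 21 libraries and AT5G02575 with 17. The most counted, AT3G01316 and AT4G03295, had means of 1235 and 924 CPM in VND7pro and 510.6 and 721.7 CPM in LTP1pro, the next highest tissue, and log2 fold changes of 3.80 and 2.3. Of the 31 called genes 3 overlap another gene. Several lie side by side, such as AT2G35382, AT2G35384 and AT2G35387 (chr2:14894380-14894796), or AT5G02565 and AT5G02575. The count of called genes is therefore not a count of separate loci.

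As a share of all counted reads, snRNA genes took 0.0123%, 0.0166% and 0.0150% in the VND7pro libraries, against 0.00208% to 0.0107% in the 18 others. The groups did not overlap, and the means of 0.0146% and 0.00584% differed with an exact permutation p of 0.0015, the smallest that 3 against 18 libraries allow (two-sided, adjusted p 0.0090 over 6 classes). This test, here and for the other classes, takes no account of the grouping of libraries by tissue. In some tissues the 3 libraries lay close together, as in SMXL5pro with 0.00923% to 0.0107%. The p therefore does not measure the spread between tissues. U6-29 was the most counted of the 13 tested snRNA genes in VND7pro, with a mean of 106.3 CPM, followed by U12 with 18.15 CPM. The share without U6-29 was not tested, so the difference may rest on this 1 gene. The snoRNA share was 0.264%, 0.443% and 0.330% in VND7pro libraries, with a mean of 0.346%, against a mean of 0.114% and a highest value of 0.396% in LTP1pro replicate 19 (exact permutation p 0.0075, adjusted p 0.0226). Here the groups overlapped, since LTP1pro replicate 19 exceeded VND7pro replicates 4 and 6. Leaving out 1 VND7pro library gave adjusted exact p up to 0.063 for snRNA and 0.16 for snoRNA genes. There are then fewer arrangements, and the smallest p that the test can give is larger. The snRNA shares of the remaining VND7pro libraries still exceeded those of all 18 others. Pseudogenes took 2.33% in VND7pro libraries on average and 4.43% in the others (exact permutation p 0.060, adjusted p 0.12), and with 17 libraries 1.65% and 4.28% (exact permutation, adjusted p 0.029). The authors' library protocol primes on poly(A) tails, and which form of the small RNAs gave the reads cannot be told from the counts. By the paper's supplement, trimming left a low share of reads in VND7pro and LTP1pro libraries and a high one in PXYpro and APLpro libraries. SMXL5pro replicates 10 and 11 also kept few reads, with snoRNA shares of 0.137% and 0.136%. Whether such differences between libraries had a part in these shares, or in the calls of small RNA genes, was not tested.

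**Figure D4:**
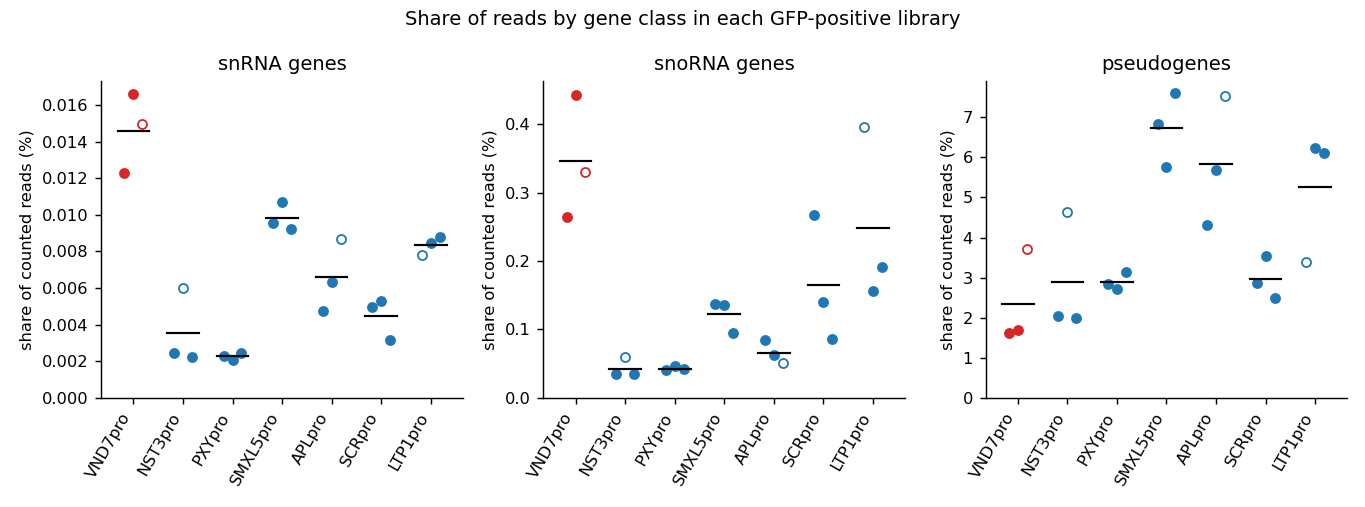
Share of counted reads on snRNA genes, snoRNA genes and pseudogenes in each GFP-positive library, in percent, with bars for means of 3 libraries and open points for libraries that the study left out. The VND7pro libraries have the highest snRNA shares, between 0.0123% and 0.0166%. Their snoRNA shares overlap with that of LTP1pro replicate 19, and VND7pro replicate 6 has a higher pseudogene share than replicates 4 and 5.

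Of the genes lower in VND7pro nuclei, the fixed lists held few. In the list of abscisic acid, cold and dehydration genes 4 of 35 were lower and 2 higher (median log2 fold change 0.03), beside 0.792% and 4.51% over all genes, and with 17 libraries 4 were lower and 11 higher. KIN2, a cold- and abscisic acid-induced gene, had 11.1, 14.8 and 5.07 CPM in VND7pro libraries, against 15.6 to 685 CPM (median 32.5) in the others (log2 fold change -2.34 ± 0.39, adjusted p 0.0002). NCED3, the rate-limiting enzyme of stress-induced abscisic acid synthesis, had 8.77, 14 and 14 CPM, against 17.5 to 199.8 CPM (median 51) (-2.26 ± 0.35, adjusted p 7.5e-05). All VND7pro libraries lay below all others for both genes. RD26 and RD20 were lower with overlapping groups (log2 fold changes -1.55 and -1.61), and their calls were lost without replicate 4 (adjusted p 0.044 and 0.022). CYP707A3, which degrades abscisic acid, and the dehydrin COR47 were higher instead (1.37 and 1.70), and were lost without replicate 4 (0.066 and 0.087) or 5 (0.066 and 0.046).

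The heat shock list had 2 of 14 genes lower and 0 higher, also with 17 libraries. Over all tested genes 0.792% were lower with 21 libraries and 2.05% with 17. HSP70 had 3.85, 18.201 and 39.6 CPM in VND7pro libraries, against 27.9 to 183 CPM (median 66.3) in the others, and HSP90.1 had 40.4, 14 and 23 CPM, against 34.9 to 203 CPM (median 61.1). The 3 VND7pro libraries differed by several fold for HSP70, and replicate 6 overlapped with the others. The log2 fold changes were -1.85 ± 0.42 and -1.41 ± 0.30 (adjusted p 0.0041 and 0.0023). Neither call held without VND7pro replicate 5 (adjusted p 0.051 and 0.055), HSP70 was also lost without replicate 4 (0.032) and HSP90.1 without replicate 6 (0.023).

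The 12 lowest genes by the rule were AT4G08505, AT4G31354, AT5G29624, AT5G17000, AT4G33040, AT5G13205, AER, GRX480, AT4G31398, AT3G18950, AT5G31355 and AT4G31405. Most of them had only a few reads in VND7pro libraries. AT4G31354 had 0.214, 0 and 1.61 CPM in VND7pro libraries, against 2.34 to 34.7 CPM (median 21.7) in the others, and AT4G08505 had 0, 0.423 and 0.461 CPM, against 2.94 to 19.1 CPM (median 8.93), so that no fold change is given for either. Together with AT4G31398 and AT4G31405 they lie within 23604 bases (chr4:15218069-15241672 in TAIR10.1), and AT4G08505 and AT4G31405 overlap on opposite strands, which the counting did not tell apart. AT5G17000, annotated as a zinc-binding dehydrogenase, had 2.78, 3.39 and 2.76 CPM, against 14 to 455 CPM (median 27) (log2 fold change -3.77 ± 0.46, adjusted p 2.8e-06). AER, an alkenal reductase encoded close to it, had 0.214, 1.69 and 2.53 CPM, against 3 to 35.9 CPM (median 14.3) (adjusted p 0.0024), again with too few reads for a fold change. GRX480, a glutaredoxin, had 1.71, 2.96 and 4.61 CPM, against 8.34 to 109.9 CPM (median 28.4) (-3.20 ± 0.41, adjusted p 6.0e-06). By the rule no VND7pro library of these genes overlapped with the others. The call of AER was lost without replicate 4 or 5 (adjusted p 0.03 and 0.022). With 17 libraries 11 of the 12 lowest genes had 0 reads in both VND7pro libraries that remained, while replicate 6 had up to 31.6 CPM for them, in AT2G38300.

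In lists of other tissues few genes were called. Over all tested genes 4.51% were higher and 0.792% lower with 21 libraries, and 10.3% and 2.05% with 17. In the cambium list MP, an auxin response factor, was higher (log2 fold change 1.44), and in the HD-ZIP III list 2 of 5 genes were, ATHB8, a marker of procambium and early xylem, and PHB (1.73 and 1.12), also with 17 libraries. ATHB8 remained called without replicate 4 or 5, whereas the calls of MP and PHB were lost without replicate 4 (adjusted p 0.053 and 0.032) or 5 (0.014 and 0.044). Over PXYpro alone, 0 of the 5 HD-ZIP III and 0 of the 17 cambium genes were called with 21 libraries. The medians were then -0.43 and -0.69, and 5 of the 17 cambium genes had a positive log2 fold change. With 17 libraries 0 of the 5 HD-ZIP III genes were called. Of the 17 cambium genes 2 were then lower than in PXYpro, beside 2.88% of all tested genes. None of these genes was called higher in VND7pro than in PXYpro nuclei in either fit. The sucrose transporter SUC2 and CVP2, an inositol phosphatase of vein patterning, were the 2 of 14 phloem genes that were higher, and with 17 libraries 2 were higher as well. SUC2 had 409, 472 and 200.2 CPM in VND7pro libraries, against 70.6 to 456 CPM (median 175) in the others (1.14 ± 0.27, adjusted p 0.0075), and CVP2 had 93.3, 99.9 and 50.2 CPM, against 3.77 to 55 CPM (median 17.55) (2.15 ± 0.31, adjusted p 2.8e-05). SUC2 overlapped with APLpro libraries and was lost without replicate 4 or 5 (adjusted p 0.097 and 0.17), and also without any of 9 single libraries of other tissues (up to 0.014). The epidermis list had 1 of 12 genes higher, LTP1, with 58.2, 72.8 and 30.6 CPM in VND7pro libraries, against 0.501 to 76.2 CPM (median 9.42) in the others (2.04 ± 0.47, adjusted p 0.0049, lost without replicate 4 or 5 at 0.047 and 0.095). With 17 libraries LTP1 was higher and ATML1, an epidermal homeodomain factor, lower (-1.86 ± 0.46, adjusted p 0.006).

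None of the 8 starch sheath, 36 photosynthesis or 17 mitosis and DNA replication genes was called with 21 libraries, with medians of -0.32, -0.08 and 0.05. At an unadjusted p under 0.05, 1 gene of each of these 3 lists and 6093 of all 31583 genes passed. With 17 libraries the photosynthesis genes LHCB2.2 and PSAN (0.81 and 1.17) and the cyclin gene CYCD3;1 (1.24) were higher and 0 starch sheath genes were called. KRP1 and KRP2, inhibitors of cyclin-dependent kinases, were higher among 8 endocycle genes (1.21 and 1.52, adjusted p 0.0082 and 0.0025), and both were lost without replicate 4 (adjusted p 0.19 and 0.093) or 5 (0.1 and 0.053), KRP1 also without any of 9 single libraries of other tissues (up to 0.013). With 17 libraries 2 of the 8 were higher. Of 17 aquaporin genes, which encode water channels, 1 was higher with 21 libraries, beside 4.51% over all genes, and 10 with 17 libraries, beside 10.3%. PIP2;4 had 153, 150.3 and 62.2 CPM in VND7pro libraries, against 1.66 to 38 CPM (median 9.88) in the others, with no overlap (log2 fold change 3.36 ± 0.34, adjusted p 1.7e-07). The other aquaporins called with 17 libraries were PIP1;2, PIP1;3, PIP1;5, PIP2;1, PIP2;6 and PIP2;7, of the plasma membrane, and TIP1;1, TIP1;2 and TIP2;1, of the vacuole, with log2 fold changes between 0.86 and 1.92. PIP1;3 had 523, 509.6 and 184 CPM in VND7pro libraries, against 28 to 588 CPM (median 165) in the others, the highest being an SCRpro library, and with 21 libraries gave 1.51 ± 0.40 (adjusted p 0.015). In the wounding and touch list 1 of 14 was higher and 0 lower with 21 libraries, and 5 were higher and 1 lower with 17, beside 10.3% and 2.05% over all genes. TCH4, the 1 called in both fits, is a xyloglucan-modifying enzyme (log2 fold change 1.92 ± 0.37, adjusted p 0.00089, lost without replicate 4 or 5 at 0.029 and 0.024). WRKY40, JAZ1, ERF104 and TCH3 were the others that were higher with 17 libraries (0.89, 1.17, 1.11 and 1.07), and ZAT10 was lower (-1.01).

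To see where vessels differ from the tissues most like them, VND7pro nuclei were compared with PXYpro and NST3pro nuclei in the same fit, so that these comparisons share the VND7pro libraries with each other and with the one above. Against PXYpro 284 genes were higher (0.899%) and 402 lower (1.27%), and with 17 libraries 1421 (4.35%) and 941 (2.88%). Against NST3pro 349 were higher (1.11%) and 265 lower (0.839%), and with 17 libraries 1303 (3.99%) and 796 (2.44%). Genes differing from PXYpro, 686 in both directions, numbered 299 to 377 without VND7pro replicate 4 or 5 or PXYpro replicate 7, 8 or 9, and those differing from NST3pro, 614 in all, numbered 221 to 364 without VND7pro replicate 4 or 5 or NST3pro replicate 1 or 3.

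The cell death list separated vessels from both. Against PXYpro 4 of its 13 genes were higher and against NST3pro 5, beside 0.899% and 1.11% of all tested genes. The medians were 2.22 and 1.97. XCP2 averaged 1926 ± 940.1 CPM in VND7pro, 162 ± 9.77 CPM in PXYpro and 44.4 ± 14 CPM in NST3pro nuclei (SD, n = 3 each). Its log2 fold changes were 3.57 ± 0.63 over PXYpro and 5.43 ± 0.69 over NST3pro (edgeR adjusted p 0.0011 and 5.8e-05). ACL5 was higher than in NST3pro (2.74 ± 0.57, adjusted p 0.0049), but did not pass the test against PXYpro (1.58 ± 0.54, adjusted p 0.087), with 325 ± 139 CPM in VND7pro and 108 ± 30.4 CPM in PXYpro nuclei. VND5 was higher in both comparisons (2.68 ± 0.45 over PXYpro and 5.28 ± 0.51 over NST3pro, adjusted p 0.00066 and 2.9e-06), and VND1 over NST3pro alone (5.57 ± 0.68, adjusted p 3.8e-05, and 1.63 ± 0.56 over PXYpro, adjusted p 0.091). VND6 and VND7 were higher than in PXYpro (2.93 ± 0.66 and 2.64 ± 0.57, adjusted p 0.0082 and 0.0062), and VND7 gave 1.01 ± 0.54 over NST3pro (adjusted p 0.3).

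The wall genes did not separate vessels from fibers with 21 libraries. Against NST3pro 0 of 21 wall transcription factors, 0 of 10 cellulose, 0 of 12 xylan and 0 of 23 lignin genes were called, with medians of 0.35, 0.77, 0.94 and -0.27. With 17 libraries 1, 5, 8 and 1 of them were higher and 2 lignin genes were lower. LAC4 averaged 2696 ± 1269 CPM in VND7pro and 2628 ± 1394 CPM in NST3pro nuclei, a log2 fold change of 0.04 ± 0.63 (adjusted p 0.98), and CESA4 3695 ± 1797 and 2094 ± 656 CPM (0.82 ± 0.60, adjusted p 0.48). Against PXYpro 1, 0, 3 and 0 genes of these lists were higher with 21 libraries and 11, 8, 12 and 13 with 17. The patterning list had 4 of 10 genes higher than in PXYpro and 3 than in NST3pro, beside 0.899% and 1.11% of all tested genes. AT3G14170 was higher in both (4.16 ± 0.53 and 2.94 ± 0.50, adjusted p 4.1e-05 and 0.00091).

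The sugar starvation list also stood above both tissues. Against PXYpro 5 of 20 genes were higher and against NST3pro 7, beside 0.899% and 1.11% of all tested genes. With 17 libraries 12 were higher in each case, beside 4.35% and 3.99%. DIN10 averaged 2327 ± 1126 CPM in VND7pro, 149.8 ± 37.7 CPM in PXYpro and 107 ± 68.5 CPM in NST3pro nuclei, with log2 fold changes of 3.96 ± 0.53 and 4.44 ± 0.54 (adjusted p 6.6e-05 and 3.8e-05). SEN1 and MIOX2 were higher than in both tissues as well. Heat shock genes were lower than in PXYpro in 5 of 14 cases, HSFA2, HSP101, HSP90.1, HSP70 and ROF2, and HSP90.1 averaged 25.8 ± 13.4 CPM in VND7pro and 194 ± 15.2 CPM in PXYpro nuclei (-2.89 ± 0.37, adjusted p 4.2e-05). Photosynthesis genes all had negative log2 fold changes over NST3pro (median -1.61), of which 2 of 36, RCA and GAPB, were called, and 32 with 17 libraries. The 3 NST3pro libraries differed in these genes, with 686.7 to 4461 CPM for LHCB3 and RBCS1A together, against 527.4 to 1305 CPM in VND7pro libraries.

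**Figure D5:**
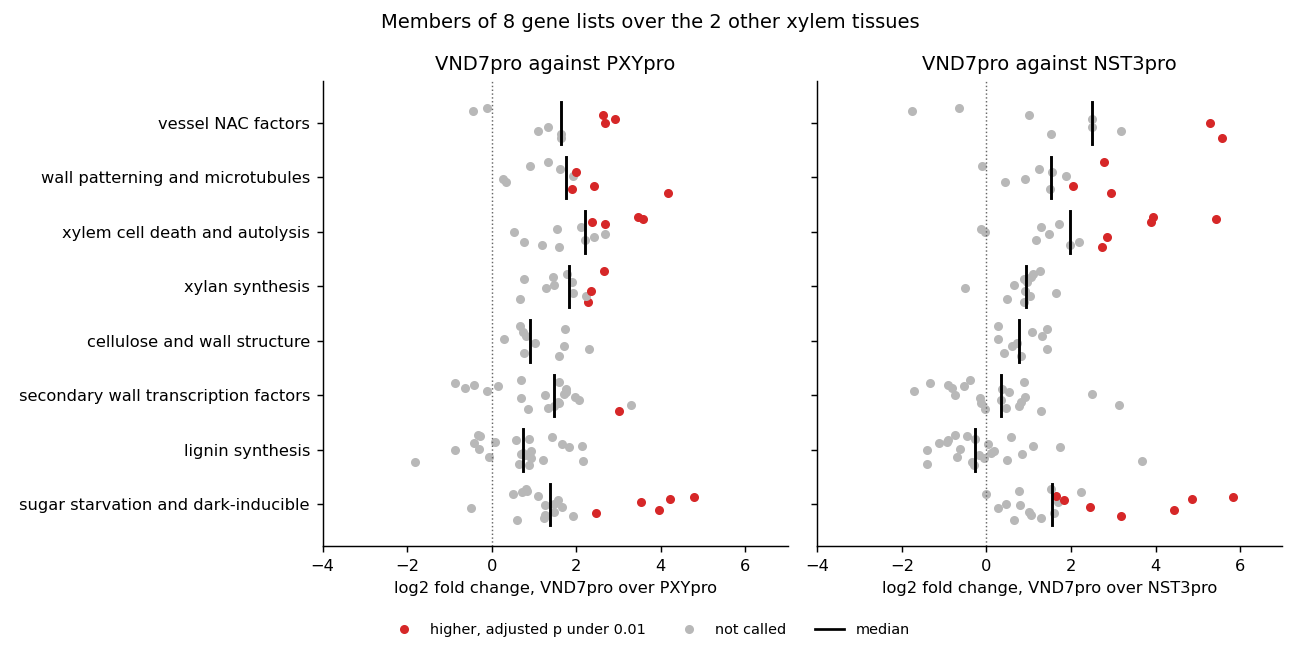
Log2 fold changes of the tested members of 8 gene lists, VND7pro over PXYpro on the left and over NST3pro on the right, in the fit of 21 libraries. Each point is a gene, red where it was higher at an adjusted p under 0.01 and grey where it was not called, and black lines are medians. The cell death list has medians of 2.22 and 1.97, whereas the lignin list has 0.73 over PXYpro and -0.27 over NST3pro.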

How the data were processed

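RNA of nuclei sorted for GFP was measured in 30 libraries, of which the 21 GFP-positive ones were used. The authors trimmed reads with cutadapt 2.3, aligned them with STAR 2.5.0a to TAIR10, kept unique hits and deposited raw counts per gene of the Araport11 annotation, introns included and strand ignored. Where they had more cDNA preparations than needed, they selected by a PCR for the reporter. From these 37051 counts per library, levels and tests were computed with edgeR 4.0.16 in R 4.3.3: TMM, filterByExpr, a quasi-likelihood fit of 7 groups, two-sided tests and Benjamini-Hochberg adjustment over all tested genes (calls at an adjusted p of 0.01). The test was checked on simulated counts. Read shares were compared with exact permutation tests. DESeq2 1.42.0, limma 3.58.1, other settings and 1 library left out at a time served as alternatives. Without molecular identifiers, PCR copies are not independent.

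Members and gene lists were chosen with earlier results of these data known. Named genes are list members and, per direction, the 12 largest log2 fold changes with an adjusted p under 0.01, an average log2 CPM of at least 3 and non-overlapping groups. Names and promoters came from RefSeq (TAIR10.1), which matched all 37051 identifiers. 1 item is not reported here.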

Additional observations from a re-analysis of the deposited data

How the results depend on the processing

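The counts of called genes depended on the libraries more than on the normalization (1442 higher and 309 lower genes with RLE size factors, which left 105 of the 106 called named genes called, without VND7). With 17 libraries, limma with quality weights and an adjusted p of 0.05, the genes higher than in the 6 other tissues numbered 3376, 3051 and 2179, against 1423, and the lower genes 669, 705 and 594, against 250. DESeq2 gave 1732 higher and 793 lower genes, so that 68.6% of its calls were higher, against 85.1%. With the 18 other libraries as 1 group 339 were higher and 11 lower (96.9% higher), since differences between tissues then count as spread. Genes differing from PXYpro numbered 2362 with 17 libraries, 2210 with DESeq2, 1835 with limma and 1822 at an adjusted p of 0.05, against 686, and genes differing from NST3pro 2099, 2327, 697 and 2017, against 614. Leaving out 1 library gave 586 to 2104 higher and 65 to 317 lower genes, 299 to 918 genes for PXYpro and 221 to 905 for NST3pro. Without NST3pro, APLpro and LTP1pro replicates 2, 15 and 19 and VND7pro replicate 6, and also without VND7pro replicate 4, 1790 genes were higher and 124 lower, 961 differed from PXYpro and 929 from NST3pro. With VND7pro replicate 5 left out in place of 4, the numbers were 2256, 694, 1616 and 1457, and the log2 fold change of HDG11, not called with 21 libraries (0.49 ± 0.65), turned to -6.17 (adjusted p 0.0022), since the remaining replicate 4 had 0.214 CPM of it. In both fits 1 VND7pro library remained, and its spread was assumed to be that of the other groups. Of 106 called genes named in the text or lists, 106 kept their call with 17 libraries, 106 with DESeq2, 105 with limma and 42 with the 18 others as 1 group. Without VND7pro replicate 4, 5 or 6, 66, 65 and 104 did. The median log2 fold change of all genes, -0.01 with 21 libraries, was -0.24 with the 18 others as 1 group, -0.13 without VND7pro replicate 6, 0.11 without NST3pro replicate 2 and -0.27 in the 17 libraries without VND7pro replicate 5.

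For shares of reads, VND7pro minus the mean of the others, 17 libraries gave -2.63 percentage points for pseudogenes, -0.0117 for tRNA genes and 4.98 for the 100 most counted genes. Leaving out 1 library gave -2.78 to -1.74 for pseudogenes, 0.00777 to 0.00993 for snRNA, 0.183 to 0.272 for snoRNA and -0.0126 to -0.00301 for tRNA genes.

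No paired analysis was possible because the replicate numbers run on through the tissues and no 2 tissues share one. With 3400268 to 6508909 reads in the VND7pro libraries, genes with a few reads there could not be told from genes at 0.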
